A study of Arabidopsis thaliana with 24 samples.

Results

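A set of 149 genes was raised by warmth in 2-day-old Arabidopsis thaliana seedlings and lowered by warmth in 7-day-old ones, and it is described here gene by gene. The genes were chosen from the 12 mock samples, which were grown on the DMSO solvent without compound. A gene was taken if its mean over those samples was at least 50 normalised reads and if log2(group mean + 1) was higher at 27°C than at 22°C by at least 0.7 at 2 days and lower by at least 0.7 at 7 days. Of 33540 genes listed, 18342 reached the mean of 50, and 149 met both differences. The study sequenced RNA from whole Col-0 wild-type seedlings, harvested early in the light period of short days, at 2 ages (2 and 7 days), 2 temperatures (22°C and 27°C) and with or without 8.5 µM Heatin, a synthetic compound that stimulates hypocotyl elongation. Each of the 8 groups had 3 samples, and each sample was a pool of seedlings from separate batches. Since the mock samples chose the genes, their temperature differences are given as a description only, and every test was made on the 12 samples with Heatin.

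Thermomorphogenesis is the change of growth that mild warmth brings about in plants, with longer hypocotyls and petioles and upward leaf movement. The bHLH factors of the PIF family and the hormone auxin act in it. A seedling of 2 days still relies largely on seed reserves, while one of 7 days has green cotyledons and lives by photosynthesis. Over the same days the root and the base of the hypocotyl differentiate, and the endodermis lays down suberin, a polyester of fatty acids and phenolics that seals the cell wall. In RNA of whole seedlings, fewer cells of a type and less RNA per cell cannot be told apart.

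The set held 139 protein-coding genes, 2 microRNA precursor genes, 3 other non-coding RNA genes and 1 transcribed pseudogene, while 4 members carry identifiers of the chloroplast genome and were not in the annotation used. The mature sequences of both microRNAs are shown because small RNA genes are among the members, with bases 2 to 8, the seed, in capitals. They were read from the RefSeq annotation of TAIR10.1. The libraries counted reads on the precursor gene, not the mature microRNA.
miR167d (gene MIR167d, chr1:11137556-11137577, plus strand): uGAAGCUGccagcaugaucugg
miR163 (gene MIR163, chr1:24884359-24884382, plus strand): uUGAAGAGgacuuggaacuucgau
MIR167d gives rise to a microRNA that acts on transcripts of auxin response factors, and that of MIR163 acts on transcripts of methyltransferases. The seeds of the pair differ.

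The 250 bases before the annotated gene start were read for 145 members and for 23235 tested genes, and were searched on both strands for 8 short motifs. The promoters of 5 members that the results below return to are shown, with any of the motifs in capitals, from TAIR10.1. PELPK2 ranks highest in the set, GPAT5 and MYB41 belong to suberin formation, and FBA5 and CT-BMY to carbon metabolism.
PELPK2 (chr5:2958972-2959221, minus strand): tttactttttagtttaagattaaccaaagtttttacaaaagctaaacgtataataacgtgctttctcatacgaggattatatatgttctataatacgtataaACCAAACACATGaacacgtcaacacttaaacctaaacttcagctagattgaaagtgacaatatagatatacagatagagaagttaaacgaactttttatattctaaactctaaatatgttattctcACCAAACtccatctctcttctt
GPAT5 (chr3:3595444-3595693, plus strand): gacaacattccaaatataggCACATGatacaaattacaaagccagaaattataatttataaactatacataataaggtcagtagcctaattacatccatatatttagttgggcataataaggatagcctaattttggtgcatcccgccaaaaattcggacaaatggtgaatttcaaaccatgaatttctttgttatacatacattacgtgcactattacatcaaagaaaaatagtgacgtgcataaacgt
MYB41 (chr4:13969526-13969775, minus strand): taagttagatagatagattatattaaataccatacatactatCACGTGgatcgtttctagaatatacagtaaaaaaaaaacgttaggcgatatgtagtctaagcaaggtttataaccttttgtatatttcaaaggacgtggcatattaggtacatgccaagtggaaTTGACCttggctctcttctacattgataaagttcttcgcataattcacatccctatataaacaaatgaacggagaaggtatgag
FBA5 (chr4:13390504-13390753, plus strand): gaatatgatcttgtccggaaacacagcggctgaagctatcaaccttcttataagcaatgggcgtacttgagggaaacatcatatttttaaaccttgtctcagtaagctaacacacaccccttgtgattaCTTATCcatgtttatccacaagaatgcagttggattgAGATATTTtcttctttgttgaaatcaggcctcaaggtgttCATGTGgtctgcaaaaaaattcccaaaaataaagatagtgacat
CT-BMY (chr4:9607403-9607652, minus strand): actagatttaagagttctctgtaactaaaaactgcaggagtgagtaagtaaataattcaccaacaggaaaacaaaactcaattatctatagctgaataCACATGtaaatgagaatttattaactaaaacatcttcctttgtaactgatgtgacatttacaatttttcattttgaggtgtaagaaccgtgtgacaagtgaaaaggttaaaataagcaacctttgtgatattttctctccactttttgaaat
The capitals mark an ACCAAAC element that overlaps a CACATG by 1 base, and a further ACCAAAC, in PELPK2. In GPAT5 and CT-BMY they mark CACATG, in MYB41 the G-box CACGTG and TTGACC, and in FBA5 GATAAG, AAATATCT and CACATG, each read from the other strand.

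The shares of promoters with each motif were counted for the members and for all tested genes with a promoter of that length, as a description. The G-box CACGTG, which bHLH and bZIP factors bind, was in 14 of the 145 (9.66%) against 7.12% of all. CACATG, a motif bound by PIFs, was in 23 (15.9%) against 11.3%. The evening element AAATATCT was in 4 (2.76%) against 4.79%, GATAAG in 16 (11%) against 12.4%, and TTGACC in 19 (13.1%) against 12.2%. ACCAAAC was in 12 (8.28%) against 8.61%, ACCTAAC in 5 (3.45%) against 2.42%, and AAACCCTA in 4 (2.76%) against 3.77%. No letters of one motif contain another, and a match is a run of letters only.

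In the mock samples, which defined the set, the difference between 27°C and 22°C had a median of 1.31 at 2 days (0.70 to 4.09) and of -1.08 at 7 days (-3.63 to -0.70), as log2 of group means. The change at 2 days was the larger in 90 members. The set made up 5.15% of the 2891 genes raised by at least 0.7 at 2 days and 7.08% of the 2106 lowered by at least 0.7 at 7 days. The mirror pattern, lowered at 2 days and raised at 7, was met by 31 genes, and 815 genes were raised at both ages. Member means over the mock samples ran from 51.4 to 77043 normalised reads, with a median of 294. Members just inside the limit included THAS1 and GS2, whose smaller difference was 0.701 and 0.703. Just outside it lay AT4G24130, AT5G05960 and AT5G43150 at 0.699, 0.698 and 0.696.

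Samples held between 19705950 and 60575036 reads on genes, with a median of 34387203.5, and replicates correlated at 0.986 to 0.994 (log2 values, across genes). Mock and Heatin samples with the same age, temperature and replicate number deviated together from their group means, with correlations across genes of 0.104 to 0.372 at 2 days and of 0.0384 to 0.110 at 7 days, above 0.1 in 7 of 12 pairs. The Heatin samples are therefore a test in other samples of the same experiment, and not in another experiment. The labels do not say whether a number stands for a shared batch, and the p-values measure the spread between these pooled samples. Libraries of 1 number stood apart in the members. Of the 3 samples at 2 days and 22°C, the third held the highest value for 114 members with Heatin and for 112 in the mock, against 43.6% and 40.9% of all tested genes.

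In the Heatin samples, which the rule did not use, most members had the same pattern. At 2 days 134 of the 149 were higher at 27°C (89.9%) in limma at a Benjamini-Hochberg adjusted p below 0.1, and at 7 days 120 were lower at 27°C (80.5%). Both calls were made for 109 members (73.2%). Over all 23408 genes tested, 33.3% were called higher at 2 days, 31% lower at 7 days and 3.85% both. Among the 18342 genes with a mock mean of at least 50 these shares were 38%, 34.4% and 4.5%. No member was called lower at 2 days or higher at 7 days, calls that 32.9% and 26.8% of all tested genes had. The median member difference was 1.35 at 2 days and -0.97 at 7 days (log2, limma), against 0.00 and -0.03 over all tested genes. Regardless of p, 145 members had a difference above 0 at 2 days, as 50.1% of all tested genes did, and 147 had one below 0 at 7 days, as 52.4% did.

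The difference between the ages was tested itself, as the temperature effect at 7 days minus that at 2 days. It was below 0 for 144 members (96.6%) at an adjusted p below 0.1 (limma, Benjamini-Hochberg), against 23.5% of all tested genes, and above 0 for none, against 19.3%. Its median was -2.39 in the members (log2). In the normalised read counts, the 3 samples at 27°C all lay above the 3 at 22°C at 2 days for 117 members, a separation that 33% of all tested genes had. At 7 days all 3 lay below for 133 members, against 32.6%, and 106 members were separated at both ages, against 4.14%.

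**Figure D1:**
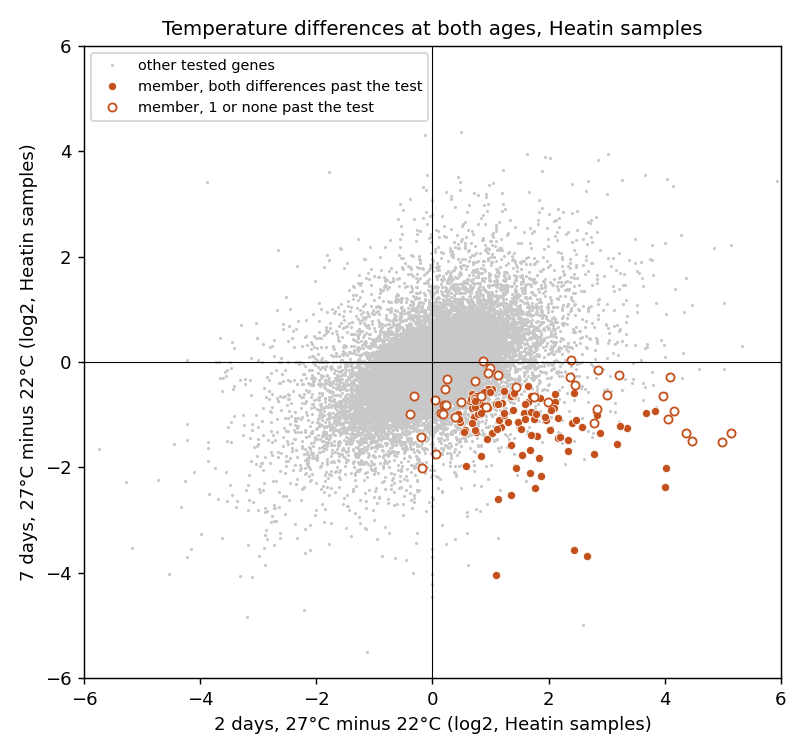
Temperature differences (27°C minus 22°C, log2, limma) in Heatin samples at 2 days (horizontal axis) and 7 days (vertical axis), with 1 point per gene, members in orange and other tested genes in grey. Of the 149 members, 145 lie right of 0 and 147 below 0, and the 109 filled points passed the test at both ages. 3 other genes lie outside the axes, which end at 6.

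The 29 members not called at 7 days include 18 whose groups did not overlap there. Of all tested genes 32.6% had this separation, and the share among genes not called was not counted. The fit shares 1 spread per gene over the 4 Heatin groups, those of 2 days included, where the third 22°C sample stood apart in many members. Without the third Heatin sample at 2 days and 22°C, 134 members were called lower at 7 days and 122 at both ages. Leaving out any other 2-day Heatin sample gave 121 to 126 lower at 7 days, against 120 with all samples in the fit. Leaving out a 7-day Heatin sample instead gave 102 to 114, but this takes values from the 7-day comparison itself. The shares of all tested genes were not counted in these fits. With the samples of 1 age alone in the fit, an alternative added after seeing the data, 137 members were called lower at 7 days (32.1% of all tested genes), 127 higher at 2 days (32.6%) and 118 both (4.06%).

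By the smaller of its mock differences PELPK2 (AT5G09520) ranked highest. It encodes a hydroxyproline-rich glycoprotein of the cell wall. In the mock samples it had 1.42, 1.05 and 2.27 normalised reads at 2 days and 22°C and 13.4, 4.13 and 19.9 at 27°C, and 543, 769 and 699.6 (22°C) and 73.7, 112 and 83 (27°C) at 7 days, values that took part in its choice. It had 0, 1.79 and 16.1 normalised reads in the 3 Heatin samples at 2 days and 22°C and 92.2, 30.3 and 66.6 at 27°C. At 7 days the values were 319, 373 and 268 at 22°C and 81.1, 52.3 and 52.2 at 27°C. The groups did not overlap at either age, and the lowest and the highest group lay at 22°C. The log2 difference was 4.01 (SE 0.73, limma adjusted p = 0.000338) at 2 days and -2.37 (SE 0.73, limma adjusted p = 0.0152) at 7 days. Its neighbour on chromosome 5, PELPK1 (AT5G09530), was also a member, with differences of 3.83 (SE 0.44, limma adjusted p = 7.35e-06) and -0.94 (SE 0.44, limma adjusted p = 0.0923). Reads of such paralogs can be shared where their sequences match, so the values of the pair are less certain.

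UMAMIT14 (AT2G39510), an amino acid exporter, had the pattern in the same order of groups. Its Heatin values were 3.06, 4.18 and 19.7 at 2 days and 22°C and 47.4, 34 and 39.9 at 27°C. They were 253, 247 and 389 at 7 days and 22°C and 29.6, 9.5 and 44.1 at 27°C. Within each age the groups did not overlap, while 27°C samples of 7 days overlapped both 2-day groups. The differences were 2.44 (SE 0.57, limma adjusted p = 0.00214) and -3.58 (SE 0.57, limma adjusted p = 0.000171). The related transporter genes UMAMIT29 and UMAMIT47 were members too, and with Heatin both were higher at 2 days (2.05 and 0.44) and lower at 7 days (-0.91 and -0.99).

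NEET (AT5G51720) encodes an iron-sulphur cluster protein of chloroplasts and mitochondria. In mock samples it had 34, 36.8 and 71.9 normalised reads at 2 days and 22°C and 303, 253 and 319 at 27°C, and 1847, 1779 and 2149 (22°C) and 508, 365 and 464 (27°C) at 7 days. In Heatin samples it had 34.7, 42.4 and 98.5 normalised reads at 2 days and 22°C, and 267, 279 and 259.6 at 27°C. At 7 days the 22°C samples held 1538, 2117 and 1909, and the 27°C samples 547, 543 and 635. No groups overlapped, and the level at 27°C was nearer between the ages than the level at 22°C. The differences were 2.33 (SE 0.27, limma adjusted p = 8.39e-06) and -1.68 (SE 0.27, limma adjusted p = 0.000195).

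PPT2 (AT3G01550), a transporter that exchanges phosphoenolpyruvate and phosphate across the plastid envelope, had the largest fall of the mock samples at 7 days (-3.63). With Heatin its values were 398, 445 and 475 at 7 days and 22°C and 43.7, 26.9 and 31.8 at 27°C. At 2 days they were 1.02, 8.96 and 15.3 (22°C) and 51.1, 34 and 44.7 (27°C). The 27°C samples of both ages overlapped, as for UMAMIT14. The differences were 2.66 (SE 0.54, limma adjusted p = 0.000775) and -3.67 (SE 0.54, limma adjusted p = 9.5e-05).

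**Figure D2:**
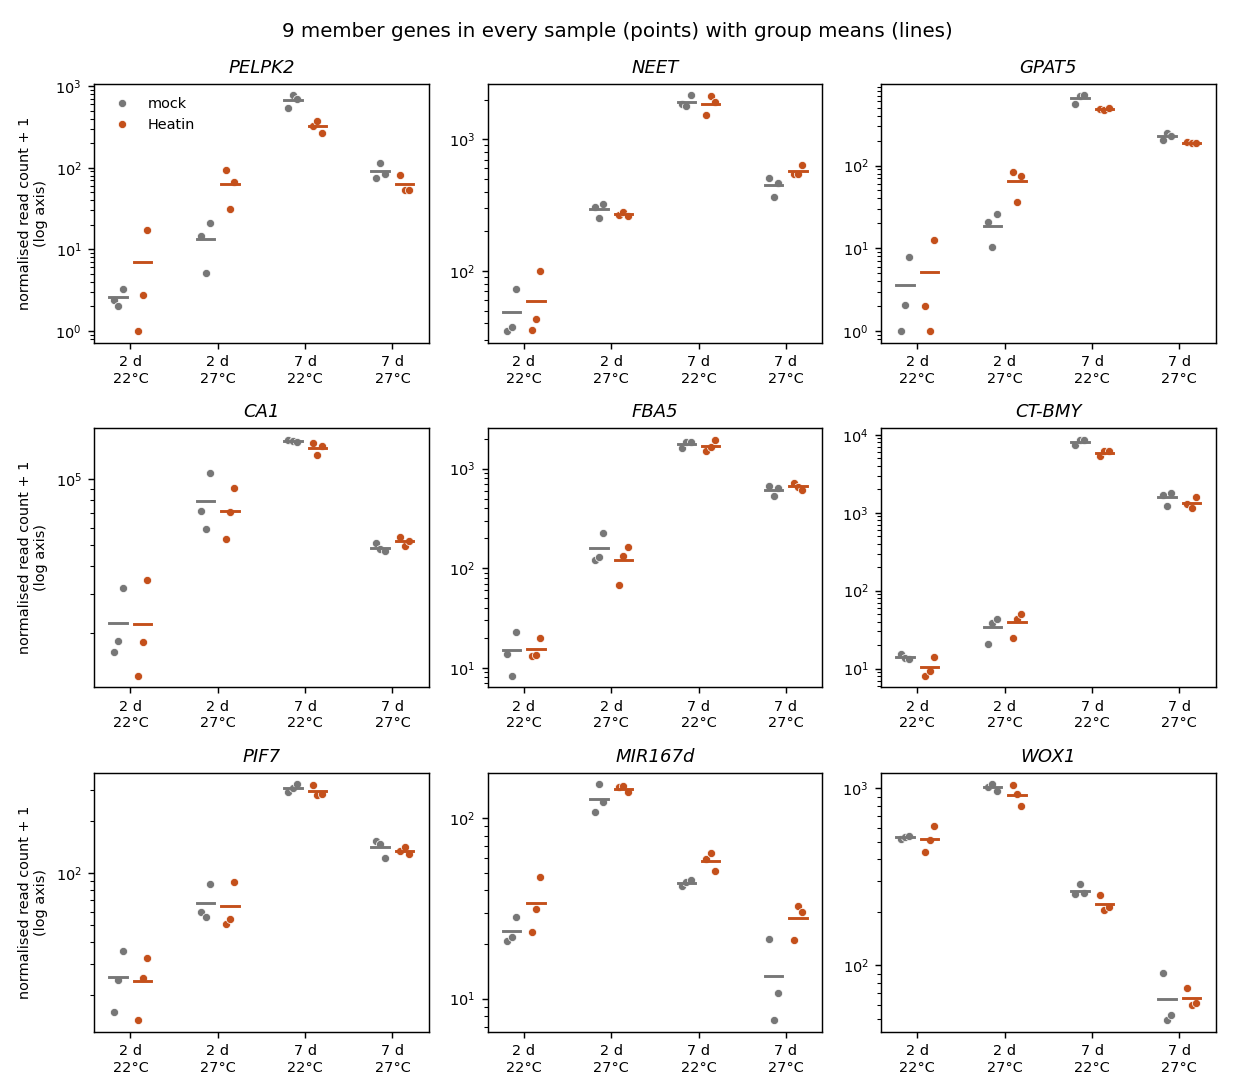
Normalised read counts plus 1 (log axis) of 9 members in all 24 samples, by age and temperature, with mock in grey, Heatin in orange, 1 point per sample and a line at each group mean. Seven-day levels at 22°C were highest in the genes of the upper 2 rows and in PIF7, while MIR167d and WOX1 were highest at 2 days and 27°C.

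The rest of the 20 highest ranked members were in part genes of unknown role. AT5G08250 encodes a cytochrome P450, AT4G29930 a bHLH protein and AT3G50400 a GDSL lipase, while AT1G55990, AT1G04800 and AT4G33610 encode glycine-rich proteins, AT2G34610 a cotton fibre protein and AT3G56275 a transcribed pseudogene. ECS1 encodes a wall-bound protein. In the Heatin samples all of these were called higher at 2 days, with log2 differences from 1.19 (AT4G29930) to 5.14 (AT4G33610). At 7 days those called lower ranged from -0.68 (AT3G56275) to -2.10 (AT1G04800), while AT1G55990 and AT4G33610 were not called (-1.52 and -1.34, limma adjusted p = 0.159 and 0.199). AT4G33610 had few reads in 2 of the 3 youngest samples at 22°C. It had 2.04, 2.99 and 72.3 normalised reads at 2 days and 22°C and 427, 212 and 424 at 27°C, and 1251, 1395 and 1388 (22°C) and 559.7, 500.4 and 535 (27°C) at 7 days. The groups were separated at both ages.

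Suberin formation was the shared role of 11 members. A list of 22 names for it was written after the members were seen, so its share of members is a description and no support for a theme. Of its 21 genes found and tested, 11 were members. They cover the path from fatty acids to the deposited polymer. KCS2 elongates fatty acids, CYP86A1 and CYP86B1 oxidise their chain ends, and GPAT5 and GPAT7 attach them to glycerol. FAR4 and FAR5 reduce them to fatty alcohols, RWP1 (also named ASFT) and FACT add ferulate and caffeate, and ABCG6 exports the monomers. MYB41 is a transcription factor that activates suberin genes.

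With Heatin, 10 of these 11 members were called higher at 2 days and 27°C, 5 were called lower at 7 days, and 4 were called both (CYP86A1, KCS2, FAR5 and RWP1). Over all tested genes these calls were made for 33.3%, 31% and 3.85%, and over all 149 members for 89.9%, 80.5% and 73.2%. Since the 11 genes are themselves members, an excess over all tested genes comes with their choice. Beside the whole set, a smaller share of them was called lower at 7 days or called both. GPAT5 had 1.02, 0 and 11.7 normalised reads at 2 days and 22°C and 83.5, 35.2 and 73.2 at 27°C. It had 476, 472 and 491 at 7 days and 22°C and 193, 185 and 189 at 27°C. The 7-day groups were far apart and tight, and the 2-day samples varied more. The mock samples held 0, 1.05 and 6.82 (22°C) and 19.5, 9.3 and 24.6 (27°C) at 2 days, and 549.8, 693 and 704 (22°C) and 201, 249 and 225 (27°C) at 7 days. The Heatin differences were 4.37 (SE 0.65, limma adjusted p = 6.09e-05) and -1.34 (SE 0.65, limma adjusted p = 0.101). In the fit of 1 age alone, which was added after seeing the data, GPAT5 had a limma adjusted p of 1.9e-05 at 7 days. In that fit 10 of the 11 were called lower at 7 days, against 137 of the 149 members and 32.1% of all tested genes.

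With Heatin ABCG6 had 4.08, 2.99 and 63.5 (22°C) and 320.3, 143 and 311 (27°C) normalised reads at 2 days, and 1352, 1317 and 1236 (22°C) and 544, 397 and 455 (27°C) at 7 days. The third sample at 2 days and 22°C was more than 10 times as high as the others of its group. The differences were 4.48 (SE 0.74, limma adjusted p = 0.000153) and -1.49 (SE 0.74, limma adjusted p = 0.11). CYP86A1 had 0, 0.598 and 2.92 (22°C) and 22.4, 14.6 and 35.2 (27°C) at 2 days, and 1371, 1142 and 1169 (22°C) and 769, 502 and 629 (27°C) at 7 days. Its level differed more between the ages than between the temperatures. FACT was the exception at 2 days, with 3.06, 1.79 and 1.46 normalised reads at 22°C and 1.25, 1.21 and 1.9 at 27°C, and a difference of -0.32 (SE 0.23, limma adjusted p = 0.25).

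Of the other 10 genes of the suberin list, 7 were called higher at 2 days and 3 lower at 7 days with Heatin. Over all tested genes these calls were made for 33.3% and 31%, so that the 7-day count is near the general share. The list as a whole had 17 genes higher and 2 lower at 2 days, and 1 higher and 8 lower at 7 days, with medians of 1.72 and -0.76 (log2). The transporter gene ABCG1 was higher at both ages (1.81 and 0.95), and ABCG2 was lower at 2 days (-2.08). MYB92, another regulator, was called in both directions of the set (0.85 and -0.44) but did not meet the rule in the mock samples. FAR4 and FAR5 lie next to each other on chromosome 3.

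**Figure D3:**
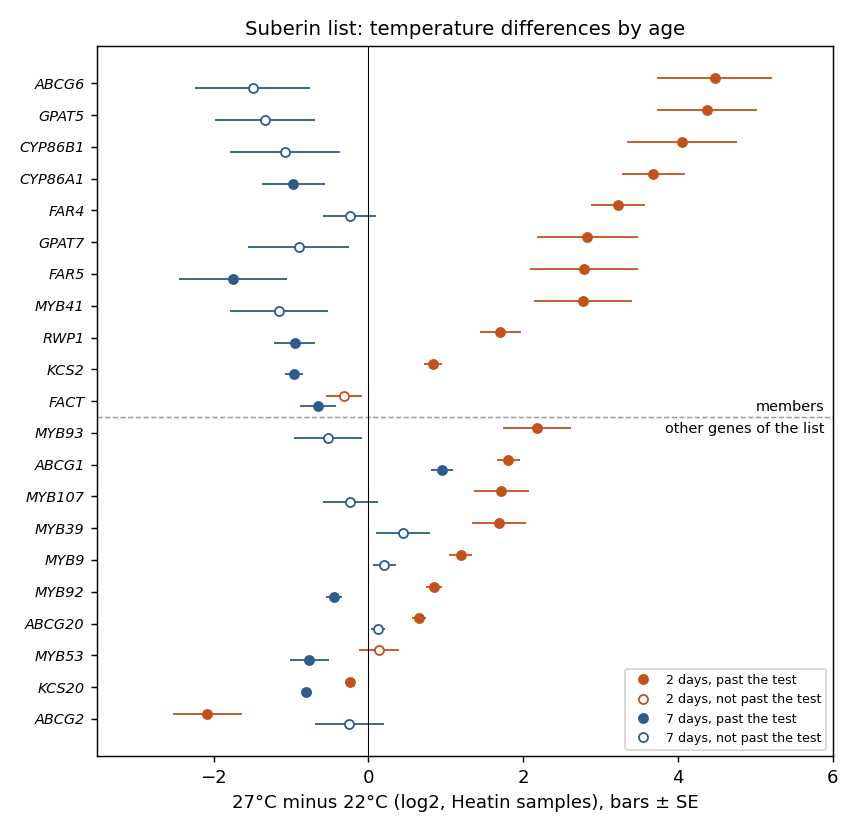
Temperature differences (27°C minus 22°C, log2, with limma SE bars) in Heatin samples for the 21 genes of the suberin list, at 2 days in orange and 7 days in blue, filled where the adjusted p was below 0.1. Above the dashed line stand the 11 members, of which 10 were higher at 2 days, and below it the other 10 genes.

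Markers of the root endodermis and stele were set beside these genes, and 1 of the 6, PHO1, is itself a member. The sum of the other 5 was 5208 to 5707 normalised reads at 2 days and 22°C with Heatin and 6371 to 7257 at 27°C. At 7 days the 22°C samples held 4945 to 5457, and those at 27°C held 4477 to 4901. Among them CASP1 and CASP2, which build the Casparian strip, were higher at 2 days (0.83 and 1.00) and were not called at 7 days (-0.18 and 0.09). SHR and SCR, regulators of the endodermis, were lower at 7 days (-0.23 and -0.19), and SCR was lower at 2 days as well (-0.23). With PHO1 the sum was 5857 to 6527 (22°C) and 8362 to 10077 (27°C) at 2 days, and 12650 to 14283 (22°C) and 8529 to 9254 (27°C) at 7 days. All 6 root hair markers were lower at 27°C at both ages, with sums of 6894 to 11687 and 1289 to 2607 at 2 days and of 634 to 847 and 220.1 to 290.5 at 7 days. The part of the cell type make-up in the values of the members was not tested.

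A further group of members act in the plastid and in carbon metabolism. CA1 (AT3G01500), a carbonic anhydrase of the chloroplast, had 12789, 18127 and 34687 normalised reads at 2 days and 22°C with Heatin and 53484, 70272 and 90982 at 27°C. At 7 days it had 144630.0, 128617 and 140250.0 (22°C) and 54493, 49248 and 52244 (27°C). The mock samples held 16367, 18363 and 31777 (22°C) and 71628, 59094 and 105946 (27°C) at 2 days, and 150025, 148941 and 146276 (22°C) and 50881, 48209 and 46980.3 (27°C) at 7 days. The 22°C samples stood lowest at 2 days and highest at 7 days, and 27°C samples of both ages overlapped. The differences were 1.8 (SE 0.28, limma adjusted p = 9.7e-05) and -1.41 (SE 0.28, limma adjusted p = 0.00101).

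FBA5, an aldolase, rose from 12.2, 12.6 and 19 to 66.1, 131 and 164 at 2 days and fell from 1496, 1648 and 1940.4 to 717, 657 and 612 at 7 days. The groups did not overlap, and the differences were 2.89 (SE 0.26, limma adjusted p = 1.2e-06) and -1.35 (SE 0.26, limma adjusted p = 0.000787). CT-BMY (AT4G17090), the beta-amylase that degrades starch in leaves and is also called BAM3, rose steeply with age. Its values were 7.14, 8.37 and 13.1 at 2 days and 22°C, 23.7, 42.4 and 48.5 at 27°C, 5309, 6293 and 6214 at 7 days and 22°C and 1299, 1142 and 1573 at 27°C. All 4 groups were apart, and the temperature differences were 1.87 (SE 0.24, limma adjusted p = 2.04e-05) and -2.16 (SE 0.24, limma adjusted p = 1.15e-05). The difference between the ages at 22°C was 9.17.

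The sigma factor gene SIGE, which encodes a subunit of the plastid RNA polymerase, had differences of 1.1 (SE 0.21, limma adjusted p = 0.000564) and -0.80 (SE 0.21, limma adjusted p = 0.00689). RBCS2B, a small subunit of Rubisco, and ABA1, the zeaxanthin epoxidase of the xanthophyll cycle, were called in both directions (0.89 and -0.83 for RBCS2B, and 0.64 and -0.73 for ABA1). LHB1B1, an antenna protein of photosystem II, was called at neither age, with 15439.9, 22165 and 44191 at 2 days and 22°C and 19138, 29096 and 76063 at 27°C, groups that overlapped. RBCS2B and LHB1B1 have near-identical paralogs, so their values are uncertain where reads map to several copies.

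The plastid lists put these members beside their pathways. For these and the lists that follow, the shares of all tested genes are 33.3% higher and 32.9% lower at 2 days. At 7 days they are 26.8% higher and 31% lower, and 3.85% were called higher at 2 days and lower at 7 days. Several list counts are near or below these shares. Of 42 photosystem and antenna genes, 12 were higher and 8 lower at 2 days and 28 were lower at 7 days. Of these 42, 2 were called both higher and lower, and 1 was a member. Of 18 Calvin cycle genes, 6 were higher and 4 lower at 2 days, 17 were lower at 7 days and 6 were called both higher and lower, RBCS2B among them. Of 16 carotenoid genes, 5 were higher and 8 lower at 2 days, while 1 was higher and 13 were lower at 7 days. Among these 16, 3 were called both. Of 28 starch genes, 13 were higher and 8 lower at 2 days, and 10 were higher and 12 lower at 7 days. Among these 28, 2 were called both. Of 20 chlorophyll synthesis genes, 15 were lower at 2 days and 19 at 7 days, and 2 were higher at 2 days. Among these 20, 1 was called both, and none was a member. The summed level of 8 leaf and cotyledon markers was 978816 to 1509510 in the 22°C samples of 2 days, which overlapped the 1092370 to 1348920 of 27°C. At 7 days 22°C samples held 2559550 to 2837310, and 27°C samples 1420690 to 1529020.

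Transporters and enzymes of mineral nutrition were the next group. FRO7 (AT5G49740), the chloroplast ferric reductase, had 20.4, 23.9 and 19.7 normalised reads at 2 days and 22°C and 62.3, 81.2 and 69.4 at 27°C with Heatin. It had 1142, 1078 and 1336 at 7 days and 22°C and 362, 342 and 407 at 27°C. Its replicates were tight and the differences of like size at both ages, 1.68 (SE 0.14, limma adjusted p = 5.91e-07) and -1.67 (SE 0.14, limma adjusted p = 9.42e-07). NAS1, which makes the metal chelator nicotianamine, had differences of 0.71 (SE 0.29, limma adjusted p = 0.0496) and -0.71 (SE 0.29, limma adjusted p = 0.0582) with Heatin, and its 2-day groups overlapped. YSL2, a transporter of metal-nicotianamine complexes, had differences of 1.59 (SE 0.19, limma adjusted p = 1.19e-05) and -1.08 (SE 0.19, limma adjusted p = 0.000425). AT3G25190, annotated to the vacuolar iron transporter family, had 1.39 and -0.64. Of 26 genes on the iron list, 15 were higher and 6 lower at 2 days, 6 were higher and 7 lower at 7 days, and 4 were called both higher and lower, of which NAS1 and YSL2 were members.

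SULTR3;5 (AT5G19600), of the sulphate transporter family, had 11.2, 27.5 and 24.1 normalised reads at 2 days and 22°C, 115, 137 and 70.4 at 27°C, 351, 308 and 274 at 7 days and 22°C and 120.0, 88.7 and 124 at 27°C. The 27°C samples of both ages overlapped. The differences were 2.34 (SE 0.30, limma adjusted p = 1.9e-05) and -1.49 (SE 0.30, limma adjusted p = 0.0011), and SULTR3;1 had 0.74 and -0.64. NRT1.1, a nitrate transporter and sensor, had 2177, 1986 and 2236 (22°C) and 5429, 4865 and 4807 (27°C) at 2 days, and 4275, 4119 and 3985 (22°C) and 3076, 2648 and 2716 (27°C) at 7 days. All 4 groups were apart, with differences of 1.24 (SE 0.07, limma adjusted p = 1.11e-07) and -0.56 (SE 0.07, limma adjusted p = 4.71e-05). GS2, the plastid glutamine synthetase, had 0.72 and -0.72. Of 16 genes of nitrate uptake and assimilation, 8 were higher and 5 lower at 2 days, 2 were higher and 9 lower at 7 days, and 6 were called both higher and lower.

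PHO1, which exports phosphate to the xylem, had 564, 649 and 845 normalised reads at 2 days and 22°C and 2242, 1991 and 2820.2 at 27°C, and 8743, 7705 and 8949 (22°C) and 4309, 4052 and 4481 (27°C) at 7 days. The differences were 1.78 (SE 0.14, limma adjusted p = 4.68e-07) and -0.98 (SE 0.14, limma adjusted p = 6.98e-05). Of 19 genes of the phosphate starvation response, 4 were higher and 4 lower at 2 days and 6 were higher and 4 lower at 7 days, and PHO1 alone was called both higher and lower.

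Members that encode regulators include PIF7, MYB41 and WOX1. PIF7 (AT5G61270), a bHLH factor of shade and warmth responses, had 13.3, 23.9 and 31.4 normalised reads at 2 days and 22°C and 49.9, 53.4 and 87.5 at 27°C, and 319, 279 and 284 (22°C) and 133, 141 and 127 (27°C) at 7 days. The groups did not overlap, and the differences were 1.47 (SE 0.27, limma adjusted p = 0.000325) and -1.13 (SE 0.27, limma adjusted p = 0.00309). MYB41 had few reads at 2 days and 22°C, 0, 1.2 and 6.57, against 19.9, 6.06 and 35.2 at 27°C, groups that overlapped, with differences of 2.78 (SE 0.64, limma adjusted p = 0.00184) and -1.15 (SE 0.64, limma adjusted p = 0.148). WOX1, a homeobox gene of leaf blade outgrowth, was most abundant at 2 days, with 437, 507 and 610.1 at 22°C and 1041, 929 and 792 at 27°C, and fell to 249, 205 and 213 (22°C) and 73.3, 58.6 and 60.4 (27°C) at 7 days. Its differences were 0.83 (SE 0.14, limma adjusted p = 0.000208) and -1.78 (SE 0.14, limma adjusted p = 8.59e-07).

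The precursor gene of miR167d, whose mature sequence is given above, had 22.4, 30.5 and 46 normalised reads at 2 days and 22°C and 147, 149 and 138 at 27°C. At 7 days it had 58.2, 63.2 and 50.2 (22°C) and 20.3, 31.7 and 29.4 (27°C). The 2-day samples at 27°C stood above all others, and the differences were 2.16 (SE 0.25, limma adjusted p = 6.65e-06) and -1.07 (SE 0.25, limma adjusted p = 0.00255). MIR163 had 1.39 (SE 0.30, limma adjusted p = 0.00122) and -0.91 (SE 0.30, limma adjusted p = 0.0214). TAS3, the source of small RNAs that act on auxin response factors, had 0.68 and -0.61, called at both ages. The libraries were counted without strand, so reads of a transcript overlapping these genes cannot be told apart from theirs.

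Members of secondary metabolism and the cell surface completed the lists. TGG2, a myrosinase that hydrolyses glucosinolates, had 894, 868 and 1273 normalised reads at 2 days and 22°C, 2566, 3729 and 3219.5 at 27°C, 850.1, 822 and 1131 at 7 days and 22°C and 536, 473 and 647 at 27°C. The differences were 1.65 (SE 0.18, limma adjusted p = 3.97e-06) and -0.75 (SE 0.18, limma adjusted p = 0.0028). Of 32 glucosinolate genes, 6 were higher and 14 lower at 2 days and 17 lower at 7 days, with 3 called both higher and lower. PAL4, the entry enzyme of phenylpropanoids, had 0.76 and -1.33. On its list of 20 genes, 7 were higher and 7 lower at 2 days and 14 were lower at 7 days, with 3 called both. Of 36 genes of cuticle, wax and cutin, 17 were higher and 9 lower at 2 days and 6 were higher and 19 lower at 7 days. Among these 36, 6 were called both. Both members among them, GPAT6 (1.76 and -0.64) and KCS2 (0.83 and -0.96), were called both higher and lower. XTH21 of the cell wall loosening list was not called at 2 days, with 111, 80.1 and 100.0 at 22°C and 107, 72.8 and 75.1 at 27°C, and was lower at 7 days (-1.41). Of the 40 genes of that list, 18 were higher and 15 lower at 2 days, and 10 were higher and 18 lower at 7 days. Among these 40, 4 were called both.

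Only 14 members stood on any of the 34 lists other than that of suberin, and 21 of these lists held none. Without a member were, among others, the circadian clock (22 genes, 18 higher at 2 days and 12 at 7 days), the dark-inducible genes (18 genes, 16 and 15 higher) and the cell cycle (39 genes, 35 and 34 lower). Gene families that recur in the annotation of the members were counted after they were seen. They were picked for their members, which carry the pattern, so that the counts are no support for a theme. Of 61 peroxidases tested, 5 were members and 11 (18%) were called higher at 2 days and lower at 7 days, against 3.85% of all genes. For 65 lipid-transfer proteins these were 7 and 9 (13.8%), for 65 GDSL lipases 3 and 7 (10.8%), for 45 transporters of the nodulin MtN21 family 3 and 9 (20%), and for 54 glycine-rich proteins 4 and 5 (9.26%). Without the members the genes called both were 8 of 56 peroxidases (14.3%), 3 of 58 lipid-transfer proteins (5.17%), 4 of 62 GDSL lipases (6.45%), 6 of 42 MtN21 transporters (14.3%) and 4 of 50 glycine-rich proteins (8%). On chromosome 3 the lipid-transfer genes AT3G22600 and AT3G22620 were neighbours in the gene order, and on chromosome 5 the squalene epoxidase genes SQP2 and SQP1 were neighbours, with SIGE 1 gene away.

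The levels at both ages are given as a description, since the rule bears on them. It takes genes whose 22°C level is low at 2 days and high at 7 days beside that at 27°C, and 64 members had a mock mean below 50 at 2 days while 1 had one at 7 days. In the Heatin samples at 22°C, 134 members were higher at 7 than at 2 days and 6 were lower (adjusted p below 0.1 in limma), with 37.1% and 38% of all tested genes so called, and the median was 3.33 (log2). At 27°C, 80 were higher and 39 lower, with 34.7% and 34.9% of all tested genes so called, and the median was 0.73. The highest mean was at 7 days and 22°C in 119 members and at 2 days and 27°C in 30. The lowest was at 2 days and 22°C in 120 members, at 7 days and 27°C in 26 and at 2 days and 27°C in 3.

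The members fell into 5 age patterns. The 80 members higher with age at both temperatures include NEET, FRO7, FBA5, CT-BMY, PIF7, PHO1, GPAT5 and CYP86A1. A further 30 were higher at 22°C and not called at 27°C, among them PELPK2, UMAMIT14, PPT2, ABCG6, SULTR3;5 and CA1. Another 24 were higher at 22°C and lower at 27°C, including MIR167d, MIR163, TAS3, RBCS2B, NRT1.1, GS2, KCS2, RWP1 and PAL4. The 9 members called at 27°C alone, where they were lower, include TGG2, SULTR3;1 and AT1G04800. WOX1, PRP2, SQP2, PDC3, AT1G05835 and GH9C3 were lower with age at both temperatures.

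**Figure D4:**
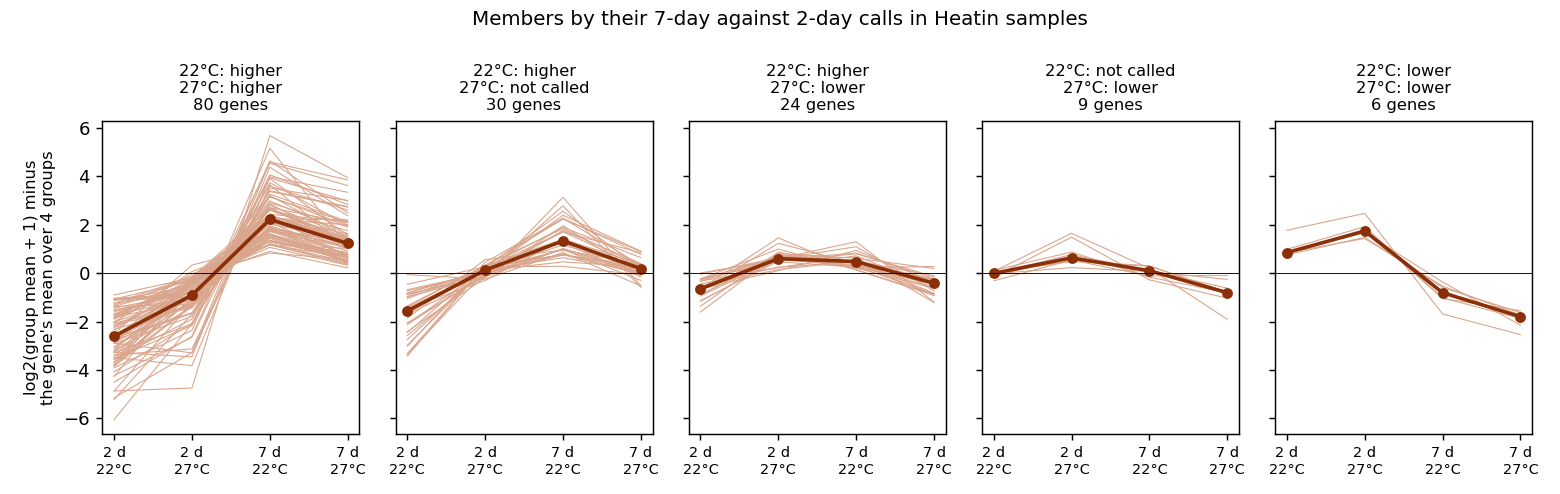
Log2(group mean + 1) of each member in the 4 Heatin groups, less its mean over these groups, in 5 panels by the calls of 7 days against 2 days at 22°C and at 27°C, with thin lines for genes and a thick line for the median. The 80 genes of the left panel rise with age at both temperatures, and the 6 of the right panel fall.

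With Heatin, 40 members (26.8%) lacked 1 or both of the calls. At 2 days 15 were not called and at 7 days 29, of which 4 were called at neither age (AT2G16005, ABCA8, LHB1B1 and THAS1). ABCA8, LHB1B1 and THAS1 nevertheless had 7-day groups that did not overlap, and were called lower at 7 days in the fit of 1 age alone (limma adjusted p = 0.00927, 0.00119 and 0.0611). FACT, XTH21, AT4G12917 and AT2G33850 had differences below 0 at 2 days (-0.32, -0.20, -0.39 and -0.18), none of them called. AT4G12917 and AT2G33850 had at most 1.2 and 2.43 normalised reads in any 2-day Heatin sample and up to 178 and 537 at 7 days. The 4 members of the chloroplast genome (ATCG00490, ATCG00340, ATCG00350 and ATCG00730) had 2-day differences of 0.05 to 0.19 and 7-day differences of -0.98 to -0.72. All 4 were called at 7 days and none at 2 days, but their 7-day groups overlapped. In the fit of 1 age alone ATCG00350 and ATCG00730 were not called at 7 days (limma adjusted p = 0.107 and 0.14). WAG1, a protein kinase of auxin transport, and OCT1, a carnitine transporter, were higher at 2 days (0.86 and 2.38) and had 7-day differences of 0.03 and 0.04, so that their 7-day mock fall was absent from the Heatin values. The effect of Heatin on that difference was not tested.

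Heatin and mock groups of the same age and temperature are set side by side as a description, since the mock samples chose the genes. The median of Heatin minus mock was 0.14 at 2 days and 22°C, 0.09 at 2 days and 27°C, -0.14 at 7 days and 22°C and -0.07 at 7 days and 27°C (log2 of group means). At 7 days and 22°C 110 members were lower with Heatin and 39 higher, while at 2 days and 22°C 45 were lower and 103 higher. The rule took genes whose mock level was high in the former group and low in the latter. Shifts in these directions can therefore arise from the choice, and are not read as an effect of Heatin. The shares of all tested genes were not counted. Single members ranged from -1.66 to 2.33 over the 4 comparisons.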

How the data were processed

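The authors aligned single-end reads of 50 bases to TAIR10 with TopHat2 2.0.13, counted them per gene without strand with HTSeq 0.6.1, and divided the counts by 1 depth factor per sample with DESeq. The deposited signal is thus a normalised read count per gene. Its steps gave whole reads for 100% of values (tolerance 0.01), and 5 summary lines per sample were left out. Reads set aside as mapping to several places came to between 6.19% and 12.4% of the number counted on genes.

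Members and lists were chosen with earlier results of these data known. The Heatin samples were fitted with limma 3.58.1 in R 4.3.3 on log2(value + 1), so that changes of low genes are understated, over 23408 genes with a mean of at least 1 in these samples, and an adjusted p below 0.1 (Benjamini-Hochberg) was a call. Contrasts were 27°C minus 22°C at each age, their difference, and 7 minus 2 days at each temperature. The test was tried on simulated data. edgeR 4.0.16 (quasi-likelihood, on the recovered reads) called 15798 genes at 2 days and 13296 at 7 days, where limma called 15493 and 13544. Other alternatives were another added value, filter, threshold or scaling, all samples in 1 fit, a replicate block and each replicate left out.

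Genes named were the 20 with the largest smaller-of-both mock difference, up to 4 members of each pathway list, those nearest the limits, neighbours, and members called opposite to the rule, of which there were 0. Other genes in the text, such as those of suberin, PIF7, WOX1, FBA5, MIR163 and TAS3, were chosen after their values were seen. RefSeq TAIR10.1 gave names, positions and sequences for 145 of the members and 32835 of the 33540 identifiers. Of the genes this rule names, 1 is not reported here.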

Additional observations from a re-analysis of the deposited data

Results flagged for a closer look

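The temperature effect differed between the ages, in a test of the difference itself, for 144 members in the Heatin samples (limma, adjusted p below 0.1). In all 144 the effect was lower at 7 days, a call that 23.5% of all tested genes had, while 19.3% were called higher. Among the 20 highest ranked members the effect at 7 days minus that at 2 days (log2) lay furthest from 0 in AT1G55990 (-6.50), AT4G33610 (-6.48), PELPK2 (-6.38) and PPT2 (-6.33). It was -6.04 in AT5G08250, -6.01 in UMAMIT14, -5.97 in ABCG6 and -4.60 in AT3G50400. NEET had -4.01, SULTR3;5 had -3.83, AT1G04800 had -3.78, GPAT7 had -3.73 and AT2G34610 had -3.65. The values were -3.36 in FRO7, -3.23 in MIR167d, -3.21 in CA1 and -2.92 in ECS1. The smallest sizes were -2.54 in AT3G56275, -2.42 in AT4G29930 and -1.41 in NAS1. The opposite mock effects of the ages chose these genes, so that a difference in the same direction is the pattern the set was chosen for, seen here in samples the rule did not use.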

How the results depend on the processing

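With a change of more than 2-fold required as well, 59 members were called lower at 7 days, 44 were called both higher at 2 and lower at 7 days, and 25 were lower with age at 27°C, against 120, 109 and 39. The shares of all tested genes were not counted under this setting or with samples left out, so these counts describe the members alone. The rule gave 315 genes at a least difference of 0.5 and 61 at 1, against 149. Leaving out 1 Heatin sample at a time gave 125 to 135 members higher at 2 days, 102 to 134 lower at 7 days, 92 to 122 both, 138 to 143 with a lower effect at 7 days, 130 to 136 higher with age at 22°C and 35 to 42 lower with age at 27°C. The lowest 7-day count came without the second sample at 7 days and 27°C, the highest without the third at 2 days and 22°C. Leaving out 1 mock sample gave 135 to 182 members, and 148 of the 149 were among the 182 found without the third sample at 2 days and 22°C. The 2-day difference of LHB1B1 lay between -0.0676 and 0.93 with 1 sample left out, and was below 0 only without the third Heatin sample at 27°C, for which the cause was not tested. The other alternatives left each count within 1.5 times its value. Among named genes, 664 of 700 values kept direction and call in fits of the full set of samples. The samples were not treated as paired, because same-numbered Heatin samples of different groups correlated above 0.1 in only 2 of 18 pairs (-0.0143 to 0.192). Both of these lay between 22°C and 27°C at 2 days, where the correlations were 0.192, 0.0288 and 0.177, so they bear on the 2-day comparison. Between the temperatures at 7 days they were 0.0167 to 0.0989. Of the 18, 15 matched best with their own number, a hint from the data and not from the design. With the replicate block the counts were 135, 127, 114, 145, 136 and 39. Genes with few reads at 2 days limit precision there.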
